A study of Mus musculus with 4 samples.

Results

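The synaptic vesicle release machinery is the set of proteins that dock, prime, fuse, tether and recycle transmitter-filled vesicles at nerve terminals. Its genes were taken by symbol, as synaptotagmins and synaptotagmin-like genes, synaptobrevins (Vamp), syntaxins and their binding proteins, SNAP genes, complexins, synapsins, Sv2, synaptogyrins, Rab3, Rims and Unc13 genes, together with 13 further genes such as Syp, Bsn, Nsf and Rph3a. The rule found 94 of the 32531 gene names in the count files, in 15 families. Ribosome-bound RNA had been sequenced from the deep cerebellar nuclei of adult, untreated Slc17a6-EGFP/Rpl10a (JX883) transgenic mice. In such a line a ribosomal protein fused to EGFP is made where the Slc17a6 sequences of the transgene are active, and antibodies to EGFP pull down the tagged polysomes with their RNA (translating ribosome affinity purification, TRAP). Slc17a6 is the transporter that loads glutamate into vesicles in the excitatory neurons of these nuclei. There were 4 pulldown libraries in a single group, with RNA of 3 mice in each. Their numbers are 1300, 1301 and 1302 for replicates 1 to 3 and 1476 for replicate 4.

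Whether separate animals went into each library is not stated, so p-values measure the spread between these libraries, which may be technical. Input RNA and other cell types were not analysed here, so the values are levels within the pulldown and not enrichments. Counts assigned to genes ranged from 9621762 to 10988373 per library, and a gene with no count may be present at up to 0.273 to 0.312 counts per 1000000 (CPM), the level of 3 counts, by counting error only. The ribosomal RNA precursor Rn45s took 13.6 and 14.2% of the counts in replicates 3 and 2, against 4.92 and 4.99% in replicates 4 and 1. Slc17a6 itself stood between 1927 and 2215 transcripts per 1000000 (TPM, counts divided by exon length and scaled to that sum) in the 4 libraries. Summed marker genes of other cell types were also present. The 7 Purkinje cell markers summed to 960 to 2828 TPM, the 6 granule cell markers to 828 to 2420 TPM and the 4 inhibitory neuron markers to 62.0 to 353 TPM, each highest in replicate 3. Glial markers were highest there too, with the 5 oligodendrocyte markers at 309 to 850 TPM and the 6 astrocyte markers at 89.5 to 216 TPM. Of 6 midbrain and thalamus markers, Tcf7l2 reached 1318 TPM in replicate 1 and at most 26.2 TPM elsewhere. Pou4f1 and En1 were also highest in replicate 1, at 19.2 and 52.5 TPM. Barhl2 was close in replicates 1 and 3 (56.2 and 52.1 TPM), Otx2 was highest in replicate 3 (7.33 TPM), and Gata3 had a mean of 0.152 TPM. In such a pulldown, fewer cells of a type and less RNA per cell cannot be told apart.

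Vesicle fusion is driven by SNARE proteins. Synaptobrevin on the vesicle zips together with syntaxin and SNAP-25 on the plasma membrane, Munc13 guides this assembly, complexin clamps it, and synaptotagmin releases the clamp when calcium enters. NSF and the SNAP adaptors then take the used complexes apart, while RIM, Bassoon, Piccolo and ELKS proteins hold the release site in place and Rab3, synapsin, SV2 and synaptophysin sit on the vesicle itself. Neurons of the deep nuclei carry the output of the cerebellum and fire at high sustained rates, so that their terminals release transmitter nearly without pause.

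Most of the machinery was detected. Of the 94 genes, 79 had a count in all 4 libraries, 8 in some of them and 7 in none, and 75 reached 1 CPM in every library. All but Vamp7 had an exon length, and their TPM summed to 3.32, 3.70, 3.70 and 4.75% of all TPM in replicates 1 to 4. The SNAP-25 family made up 41.2% of that sum, the calcium sensors 9.46%, the complexins 8.83% and the VAMP family 8.23%. At the other end, the Munc13 family held 0.413% and the RIM family 0.351%. The syntaxins, with 15 genes, held 2.86%. Genes with a mean at or above 1000 TPM included Snap25, Cplx1, Vamp2, Syn1, Syp, Rab3a and Rph3a. Among the 71 members with a mean of at least 10 CPM, the median coefficient of variation of TPM was 27.5%, beside 29.4% over all 8845 genes at that level.

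**Figure D1:**
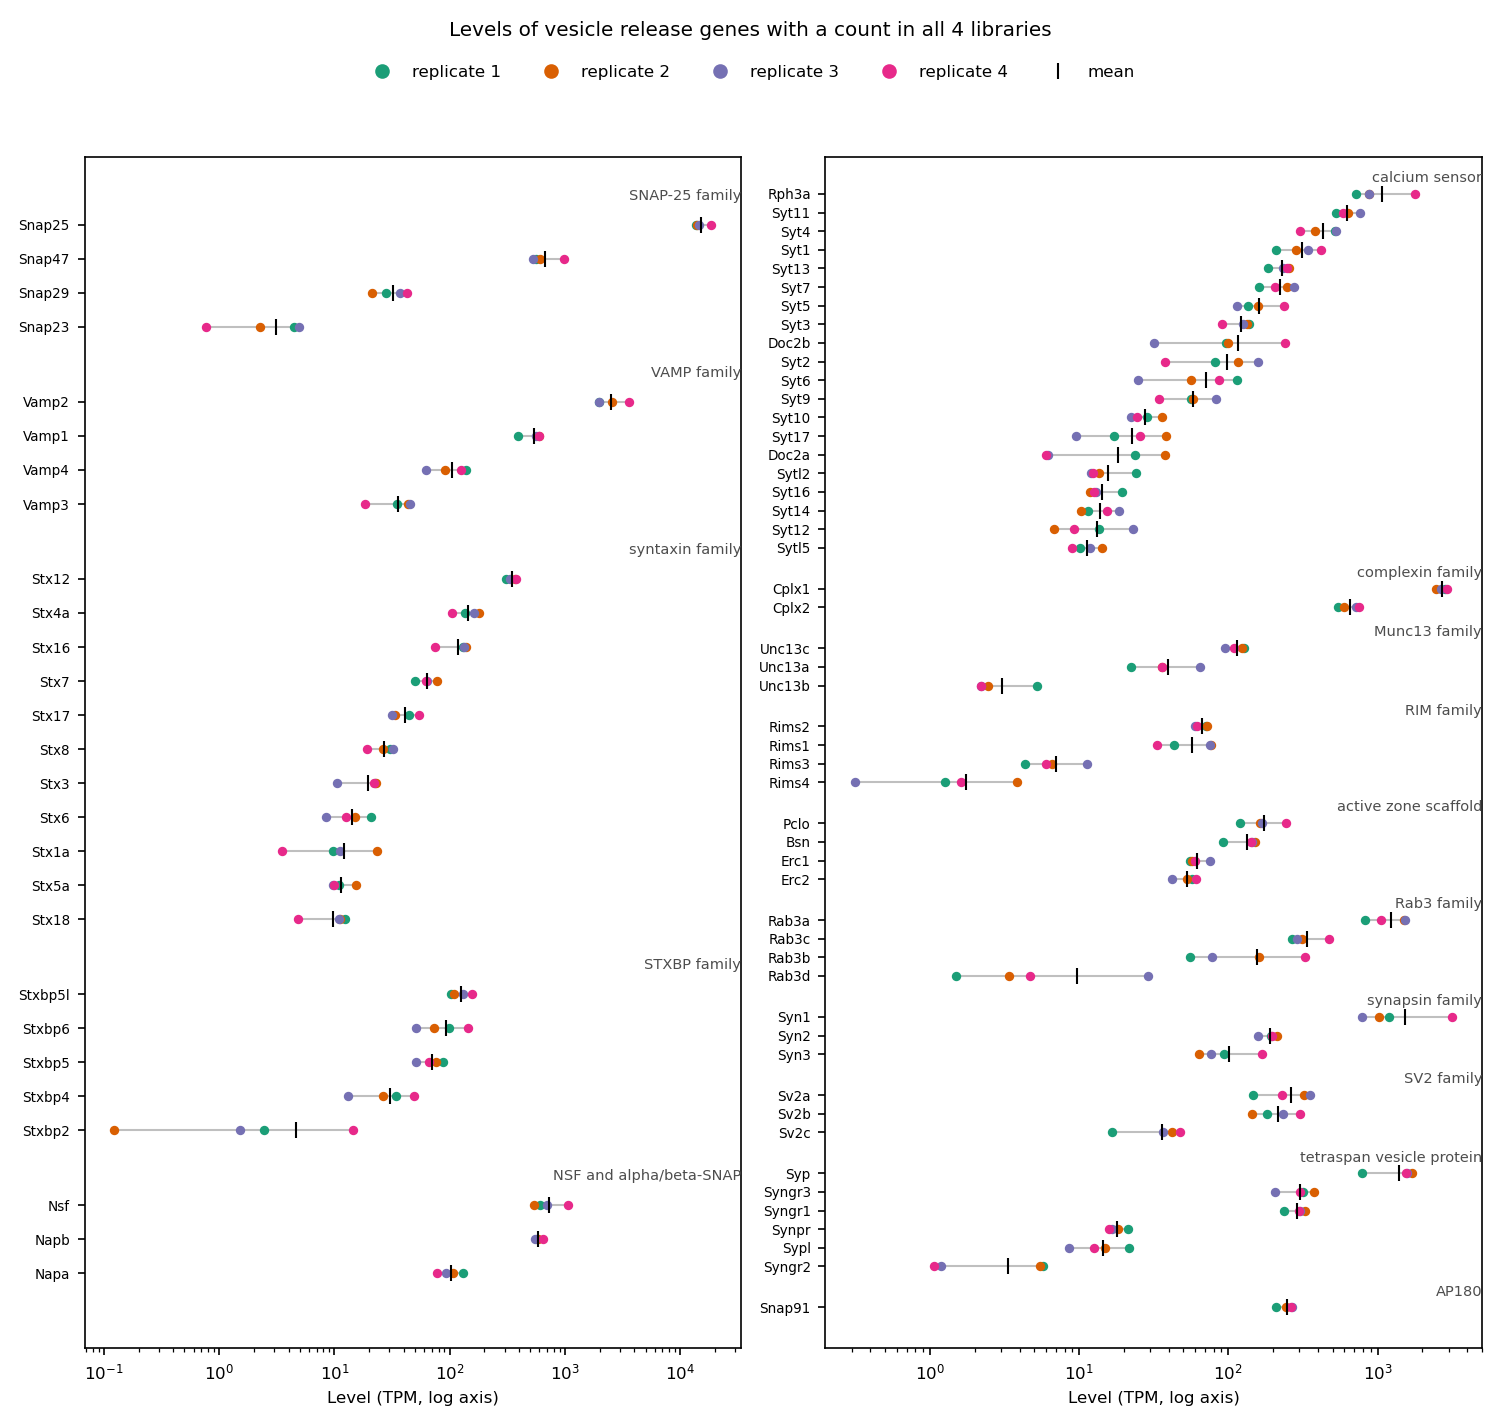
Level of 77 of the 79 genes with a count in all 4 libraries, in TPM on a log axis, grouped by family. Points are the 4 libraries, the bar joins the lowest and highest, and the black mark is the mean. Snap25 stands alone at the right, and in most families 1 gene lies well above the others.

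RefSeq promoters (GRCm38.p6, 250 bases before to 50 after a transcription start) were found for 72 of the members, 92 promoters in all. Their median GC content was 62.5%, against 52.7% over all 32851 promoters. The GC box GGGCGG, searched on both strands like the motifs that follow, was present in 58 of them (63%), against 35.7% of all promoters. The cyclic AMP response element TGACGTCA was present in 2 (2.17%), those of Syn1 and Napa, against 1.79% of all. TATAAA was present in 5 (5.43%), from Rab3b, Stx2, Stx3 and Sv2b, against 13.6%. RE1 is the site bound by the neuronal gene repressor REST. Its left part TTCAGCACC, searched after the Syn1 sequence had been seen, was in 2 (2.17%), those of Syn1 and Unc13a, against 0.371%. These are matches of letters and not measured sites. Syn1 and Rab3b are shown because they had the 2 largest positive fold changes in replicate 4, and Napa because it shares its response element with Syn1. Each line runs 5′ to 3′ from 250 bases before the start to 20 after it, with the matches in capitals.
Syn1: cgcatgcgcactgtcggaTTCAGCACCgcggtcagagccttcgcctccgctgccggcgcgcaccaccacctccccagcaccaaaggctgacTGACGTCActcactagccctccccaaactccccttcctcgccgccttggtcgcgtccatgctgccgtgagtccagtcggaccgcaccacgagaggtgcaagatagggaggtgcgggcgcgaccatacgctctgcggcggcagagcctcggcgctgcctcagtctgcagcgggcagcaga
Napa: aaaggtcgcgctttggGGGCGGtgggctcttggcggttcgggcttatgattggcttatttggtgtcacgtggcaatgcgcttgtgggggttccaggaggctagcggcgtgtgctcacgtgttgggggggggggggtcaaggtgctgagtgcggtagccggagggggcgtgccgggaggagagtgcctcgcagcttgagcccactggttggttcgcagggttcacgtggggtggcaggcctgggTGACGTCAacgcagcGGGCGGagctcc
Rab3b: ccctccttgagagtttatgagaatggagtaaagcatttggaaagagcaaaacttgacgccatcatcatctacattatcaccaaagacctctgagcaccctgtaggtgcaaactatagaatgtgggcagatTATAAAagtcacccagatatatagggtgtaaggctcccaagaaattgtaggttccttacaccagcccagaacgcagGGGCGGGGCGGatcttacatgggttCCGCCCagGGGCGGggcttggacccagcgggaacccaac
The Syn1 stretch is chrX:20920899-20921168 on the minus strand, the Napa stretch chr7:16098330-16098599 on the plus strand and the Rab3b stretch chr4:108878820-108879089 on the plus strand. In Syn1 the RE1 part begins 232 bases and the response element 159 bases before the start, and no GC box is in the window. In Napa the response element begins 7 bases before the start and lies over it. Rab3b holds 4 GC boxes, 2 of which overlap by a base, and TATAAA 120 bases before the start.

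Snap25, the plasma membrane SNARE that supplies a pair of helices to the complex, was the most abundant of all 23890 genes with a length. It stood at 13776, 14092, 14420 and 18595 TPM in replicates 1 to 4 (15221 ± 2265, SD, n = 4), and the 3 lower libraries lay close together below replicate 4. It alone made up 38.1 to 41.5% of the summed level of the machinery. The gene lies on chromosome 2 at 136713453 to 136782428 (plus strand, GRCm38). Snap47, a relative without a membrane anchor, stood at 557, 611, 530 and 989 TPM, Snap29, which works in autophagosome fusion, at 32.3 ± 9.47 TPM, and Snap23, the form of non-neuronal cells, at 3.11 ± 1.94 TPM. Snap25 held 95.6 ± 0.624% of the family's level.

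To ask which member of a family led, each gene was set against a reference gene of its family within the same library, as the difference in log2(TPM + 0.5). The test was run over 10915 genes with limma, which draws each gene's variance toward a common one. Because every difference contains the spread of the reference gene, that step (moderation) can make p too small. Adjusted p-values of the main fits are given with it, without it (3 residual degrees of freedom) or both. Fits with another length, per count or without a replicate were run with moderation only, so their p-values may be too small. Of 45 pairs, 38 passed 0.05, 35 with the family member lower and 3 with it higher, and 35 of the 38 passed in both fits. The direction was the same in all 4 libraries for each of these 38. Syntaxins and syntaxin-binding genes were not set against a reference and are given by level. A low call has little meaning by itself, since the references are abundant and most genes of the genome lie below them, and the share of all genes called is given beside each count. Against Snap25, Snap47 and Snap29 were the members tested and both were lower (100% of all genes lower, 0% higher), Snap47 by a log2 difference of -4.54 ± 0.23 (SD, adjusted p = 9.0e-05 without moderation).

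**Figure D2:**
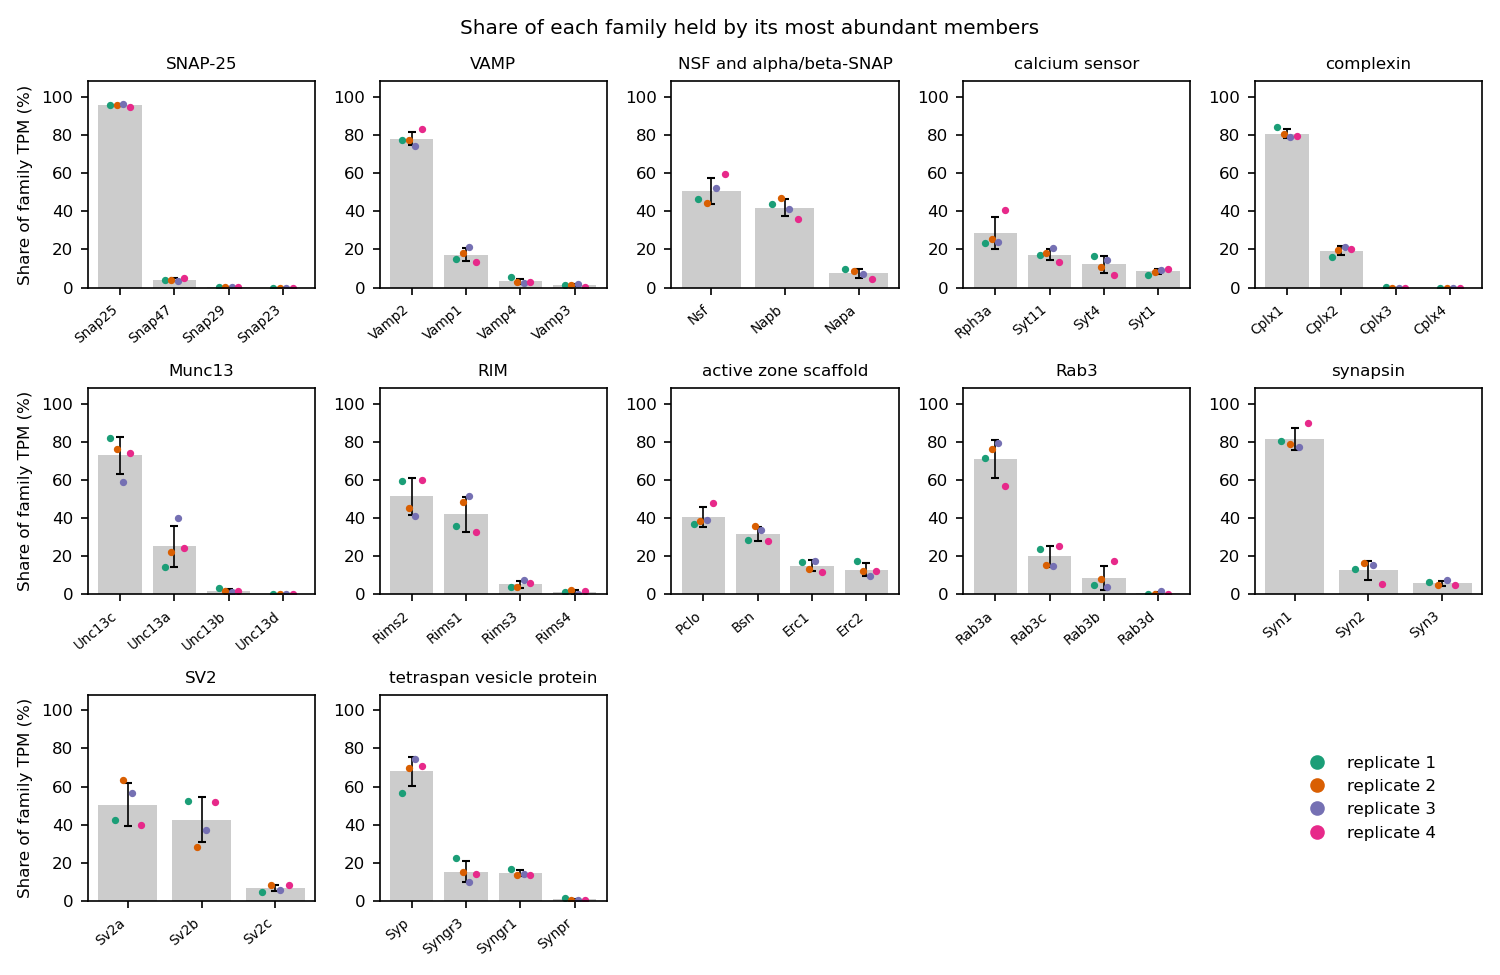
Share of each family's summed TPM held by its most abundant members (up to 4), in percent, for 12 families. Bars are means over 4 libraries, error bars are SD, and points are the libraries. Snap25, Syn1, Cplx1 and Vamp2 hold most of their families, while the RIM and SV2 families are divided more evenly. In the group of Nsf and its adaptors, Nsf and Napb hold most of the level and Napa little.

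Vamp2, the main vesicle synaptobrevin of the forebrain, stood at 1992, 2537, 1964 and 3631 TPM, highest in replicate 4. Vamp1, its counterpart that is abundant in hindbrain and spinal cord, stood at 391, 601, 563 and 596 TPM, so the lowest Vamp2 library was above every Vamp1 library. Within a library the log2 level of Vamp1 less that of Vamp2 was -2.21 ± 0.35, a 4.62-fold gap (limma, adjusted p = 9.6e-08, and 0.00133 without moderation). The Vamp1 annotation is the longer (10167 against 3809 exonic bases), so the gap depends on dividing by length. Per count, that is in CPM, the difference was -0.79 (adjusted p = 6.7e-04). Vamp4 of the trans-Golgi network stood at 104 ± 34.1 TPM and Vamp3, the synaptobrevin of recycling endosomes, at 35.5 ± 12.2 TPM. All 3 members tested were called lower than Vamp2 (99.6% of all genes lower, 0.0825% higher). Vamp8, of endosomes and secretory cells, had 77 and 22 counts in replicates 1 and 3 and none in replicates 2 and 4. Vamp5 had 1 count in all, and Vamp7 had none. Vamp7 has no entry in the annotation used here for exon lengths, so its lack of counts cannot be told apart from a gene that could not be counted.

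Most syntaxins of this list serve membrane traffic outside the release site. Stx12, of recycling endosomes, stood at 310, 368, 331 and 373 TPM (345 ± 30.0, SD, n = 4), and its libraries lay close together. Stx4a, a plasma membrane syntaxin of many cell types, stood at 136, 180, 162 and 105 TPM and Stx16 of the trans-Golgi network at 129, 138, 133 and 74.1 TPM, both lowest in replicate 4. Stx1a, a plasma membrane syntaxin of nerve terminals, stood at only 9.79, 23.5, 11.2 and 3.54 TPM and rested on 20 to 122 counts per library. Every Stx12 library lay above every Stx1a library. Stx18, a syntaxin of the endoplasmic reticulum, had the lowest mean of those with a count in every library, at 9.82 ± 3.38 TPM, and 12.5% of its exonic bases overlap Nsg1 on the opposite strand (96.0 to 285 TPM). Stx19 had no count, and the means of Stx2 and Stx11 were below 1 TPM, with 21 of the counts of Stx2 in replicate 1.

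Among the syntaxin-binding genes, Stxbp5l and Stxbp5, the tomosyns that compete with synaptobrevin for syntaxin, stood at 125 ± 24.4 and 69.9 ± 15.3 TPM. Stxbp6 (amisyn) stood at 98.5, 73.1, 51.3 and 145 TPM, lowest in replicate 3 and highest in replicate 4. Stxbp2, a form of cytotoxic and secretory cells, had 21, 1, 12 and 129 counts in replicates 1 to 4, a wide spread at a low level.

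Of the genes that take SNARE complexes apart, Nsf, the ATPase, stood at 610, 543, 698 and 1068 TPM. Its adaptor Napb, the brain form called beta-SNAP, stood at 572, 580, 551 and 644 TPM and overlapped Nsf in range. Napa, the widely expressed alpha-SNAP, stood at 130, 107, 93.4 and 77.4 TPM, below Napb in every library. Napb was not told apart from Nsf (-0.27 ± 0.36, limma, adjusted p = 0.338), but with the longest transcript as length it was lower (-0.74, adjusted p = 0.0122), and likewise per count (-0.51, adjusted p = 0.0265). Of the 2 tested, 1, Napa, was called lower and 0 higher (97.5 and 0.825% of all genes).

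The calcium sensors are the widest family, with 25 genes of which 20 had a count in every library. Rph3a, encoding rabphilin, a Rab3 partner with calcium-binding domains, was the most abundant at 722, 883, 875 and 1795 TPM. Its replicates 1 to 3 lay close together and replicate 4 lay above. Next came Syt11 at 626 ± 101 and Syt4 at 431 ± 110 TPM, a pair of synaptotagmins that do not trigger fast fusion. Of the fast sensors of synchronous release, Syt1 stood at 210, 285, 343 and 418 TPM, Syt2 at 81.2, 117, 159 and 37.6 TPM and Syt9 at 57.9 ± 19.9 TPM. Syt1 was above Syt2 in every library, by the widest margin in replicate 4, where Syt1 was highest and Syt2 lowest. Syt7, the slow, high-affinity sensor of asynchronous release, stood at 160, 249, 275 and 206 TPM, below Syt1 in each library. Doc2b, a high-affinity sensor tied to spontaneous release, stood at 96.2, 99.3, 31.8 and 240 TPM, and its relative Doc2a at 18.4 ± 15.3 TPM. Doc2a shares 39.4% of its exonic bases with Ino80e on the opposite strand, and 24 members in all overlap such a gene. The synaptotagmin-like genes, which encode partners of Rab27, were low, with Sytl2 at 15.6 ± 5.77 TPM and Sytl5, the lowest with a count in all libraries, at 11.3 ± 2.29 TPM. Syt8, Sytl1 and Sytl4 had no count.

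Against Syt1, 2 of 19 members were called higher and 14 lower (2.56 and 91.3% of all genes). The log2 difference of Rph3a from Syt1 was 1.72 ± 0.31 (limma, adjusted p = 1.3e-05, and 0.00383 without moderation). Syt11 exceeded it by 1.03 ± 0.37 (adjusted p = 0.0014, and 0.0147 without moderation), a call lost with the longest transcript as length (0.29, adjusted p = 0.279) and per count (0.35, adjusted p = 0.121). Syt2 lay below Syt1 by -1.80 ± 1.11 (adjusted p = 2.6e-04), which did not pass without moderation (0.0524). The same held for Doc2b at -1.71 ± 1.17 (adjusted p = 5.1e-04, and 0.0670 without moderation). Syt4, Syt13 and Syt7 were not told apart from Syt1, with adjusted p-values of 0.143, 0.123 and 0.0865. Syt13, a synaptotagmin without calcium binding, was called lower with the longest transcript as length (-1.21, adjusted p = 3.1e-04) and per count (-1.56, adjusted p = 4.7e-07). Syt7 was also called lower with the longest transcript (-1.09, adjusted p = 8.3e-04) and per count (-0.63, adjusted p = 0.0096). For Syt4 the direction depended on the setting. Its difference of 0.46 passed without replicate 4 (0.78, adjusted p = 0.0132) and turned per count (-0.64, adjusted p = 0.0165). The order of Syt2 over the 4 libraries was also that of the summed Purkinje cell markers (1035, 1532, 2828 and 960 TPM in replicates 1 to 4). Of the single Purkinje cell markers, Car8, Itpr1 and Ppp1r17 had that order. Pcp2 was highest in replicate 2, and Calb1, Rgs8 and Aldoc were not lowest in replicate 4. The summed inhibitory neuron markers (88.2, 160, 353 and 62.0 TPM) and each gene among them had the order of Syt2. The part of these cell types in the level of Syt2 was not tested.

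The complexins varied little between libraries. Cplx1 stood at 2853, 2453, 2664 and 2915 TPM (2721 ± 208) and Cplx2 at 545, 595, 719 and 750 TPM. Cplx1 held 80.7 ± 2.28% of the family, and the lowest Cplx1 library was above the highest Cplx2 library. The log2 difference of Cplx2 from Cplx1 was -2.07 ± 0.22 (limma, adjusted p = 9.8e-08, and 4.7e-04 without moderation). It was the 1 member tested and was called lower, as were 99.7% of all genes, with 0.0825% higher. Cplx3 and Cplx4 are known from the ribbon synapses of the retina. Cplx3 had 10 counts in replicate 1 and none elsewhere, and Cplx4 had none.

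Priming genes were lower. Unc13c, which encodes Munc13-3, a form known best from the cerebellum, stood at 127, 124, 95.1 and 109 TPM. Unc13a, encoding the widespread Munc13-1, stood at 22.4, 35.7, 64.4 and 35.8 TPM, so that no Unc13a library reached the lowest of Unc13c. Unc13c exceeded Unc13a by a log2 difference of 1.60 ± 0.79 in 4 of 4 libraries, by 0.56 in replicate 3 and 2.47 in replicate 1 (limma, adjusted p = 1.3e-04), but did not pass without moderation (adjusted p = 0.0636). Unc13b, encoding Munc13-2, stood at 3.03 ± 1.50 TPM, and Unc13d, of blood cells, had 2 and 3 counts in replicates 2 and 4 and none in replicates 1 and 3. Of 2 tested, 1 was called higher and 1 lower (27.4 and 36.6% of all genes). Granule cells are a known site of Munc13-3, and the summed granule cell markers were 828, 1512, 2420 and 1122 TPM in replicates 1 to 4. Replicate 3, highest in those markers, was lowest in Unc13c, and the part of granule cell RNA in the level of Unc13c was not tested.

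Genes of the release-site scaffold were divided more evenly. Rims1 stood at 43.0, 77.2, 75.5 and 33.3 TPM and Rims2 at 70.9, 72.4, 60.1 and 61.4 TPM. Rims2 was above Rims1 in replicates 1 and 4 and below it in the other two. Their difference was 0.29 ± 0.59 (limma, adjusted p = 0.498), and it passed with the longest transcript as length (1.21, adjusted p = 0.00230) and per count (0.79, adjusted p = 0.0445). The short forms Rims3 and Rims4 stood at 7.05 ± 2.95 and 1.76 ± 1.48 TPM, and of 2 tested, 1 was called lower than Rims1 and 0 higher (49.8 and 20.4% of all genes). Pclo and Bsn, the giant scaffolds Piccolo and Bassoon, stood at 173 ± 51.2 and 133 ± 27.2 TPM and were not told apart (0.36 ± 0.29, adjusted p = 0.159), but Pclo was called higher with the longest transcript as length (0.52, adjusted p = 0.0499) and per count (0.86, adjusted p = 1.2e-04). Erc1 and Erc2, encoding ELKS and CAST, stood at 61.9 ± 9.25 and 53.2 ± 8.29 TPM. Against Bsn, 2 of 3 members were called lower and 0 higher (78.2 and 9.11% of all genes). The call on Erc1 was lost with the longest transcript as length (-0.19, adjusted p = 0.486).

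**Figure D3:**
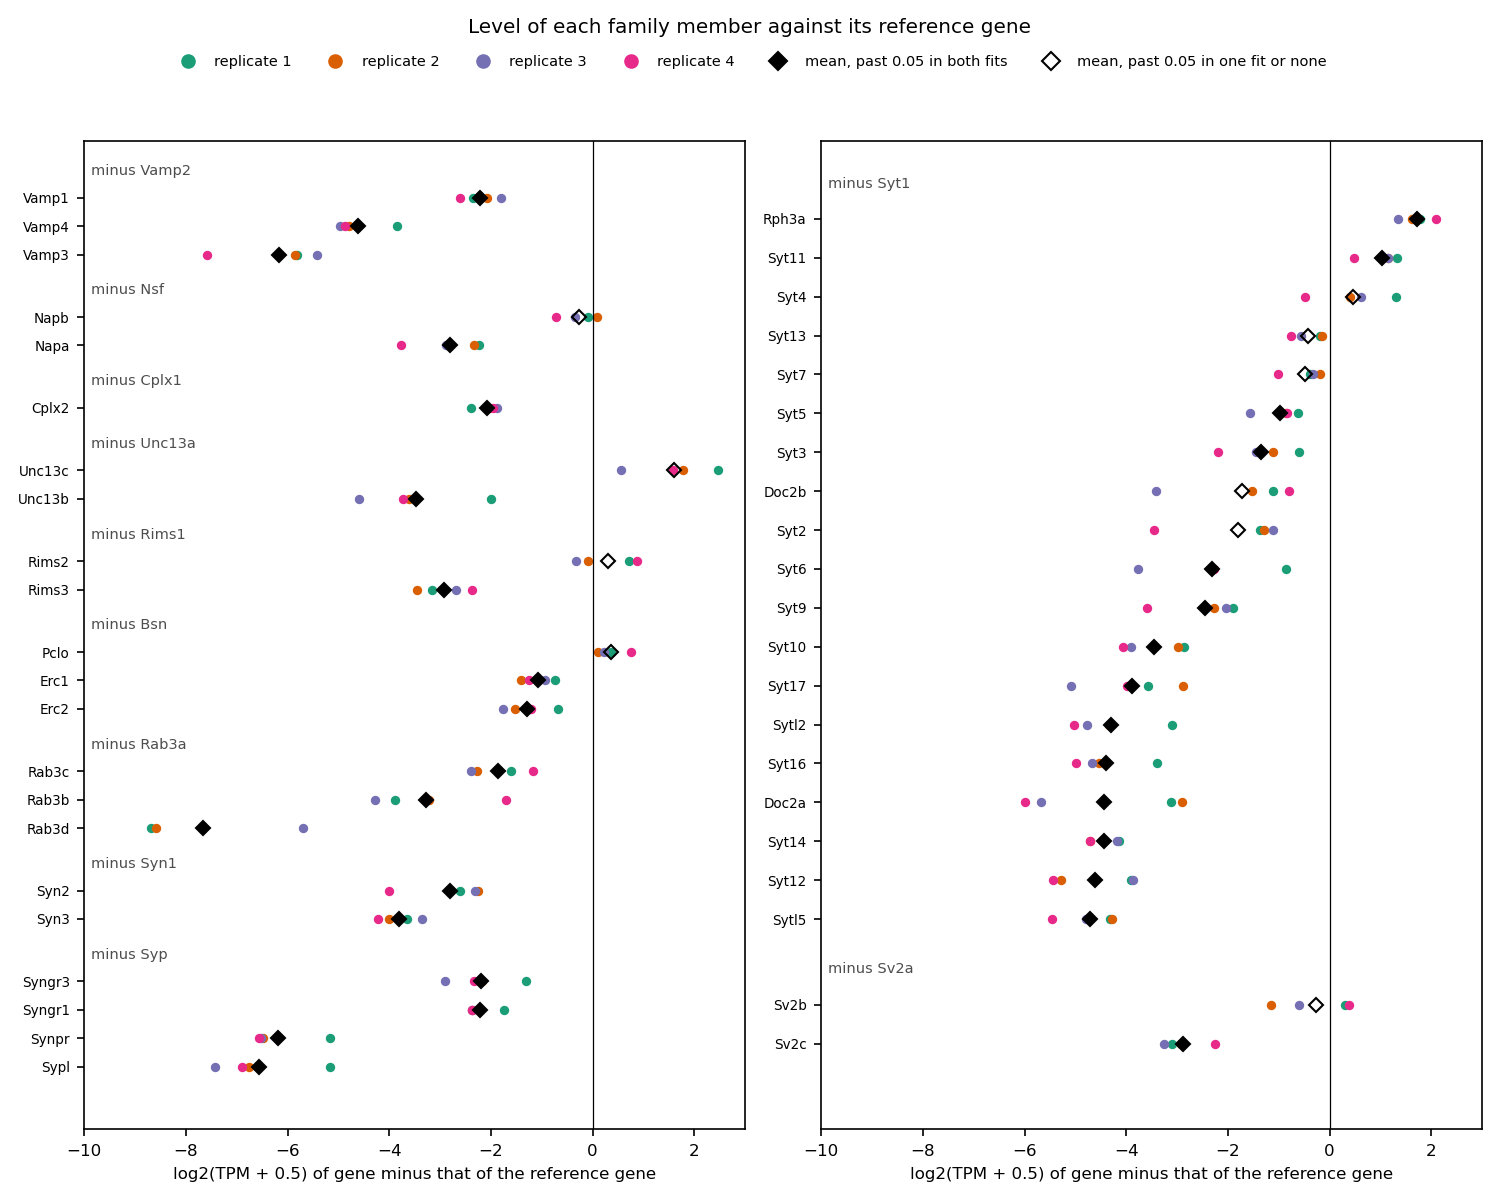
Difference in log2(TPM + 0.5) between each tested family member and the reference gene of its family, for 11 of the 12 references (Snap25, whose members lie far lower, is left out). Points are libraries. Filled diamonds are means past an adjusted p of 0.05 in limma both with and without moderation, open diamonds are the others. Rph3a, Syt11, Unc13c and Pclo lie above 0 with all 4 libraries, and of these Rph3a and Syt11 are filled.

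On the vesicle itself, Rab3a, the main Rab GTPase of synaptic vesicles, stood at 818, 1509, 1531 and 1062 TPM. Rab3c stood at 269, 310, 290 and 471 TPM, Rab3b at 55.0, 161, 78.3 and 326 TPM, and Rab3d, known from secretory cells, at 1.50, 3.42, 29.0 and 4.72 TPM. Rab3a was highest in all 4 libraries. Rab3b was highest in replicate 4 and Rab3d in replicate 3, each far from its own lowest library. All 3 relatives were called lower than Rab3a (98.9% of all genes lower, 0.394% higher), with unmoderated adjusted p-values from 0.00205 to 0.0108. For Rab3c, which has the longer annotation, the difference of -1.86 ± 0.58 turned to 0.57 per count (adjusted p = 0.0519).

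Syn1, encoding synapsin 1, which ties vesicles into a reserve pool, stood at 1189, 1018, 789 and 3163 TPM. Replicate 4 was apart from the other 3 libraries. Syn2 was steady at 190 ± 23.1 TPM, and Syn3 stood at 94.0, 63.2, 76.5 and 168 TPM, again highest in replicate 4. Both were called lower than Syn1 (98.5% of all genes lower, 0.183% higher), Syn2 by -2.80 ± 0.82 (adjusted p = 0.00809 without moderation). Syn3 shares 1733 exonic bases (14.1% of its length) with Timp3 on the opposite strand, which stood at 18.3 to 38.0 TPM, and reads of both cannot be told apart if the counting ignored strand.

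Sv2a, the SV2 protein that binds levetiracetam, stood at 147, 323, 354 and 230 TPM and Sv2b at 182, 144, 234 and 300 TPM, so that each led in 2 of 4 libraries. Their difference of -0.27 ± 0.74 did not pass (limma, adjusted p = 0.487). Sv2c stood at 35.8 ± 13.5 TPM, and of the 2 tested, 1 was called lower than Sv2a and 0 higher (87.7 and 3% of all genes). Syp, encoding synaptophysin, stood at 792, 1690, 1565 and 1544 TPM, with replicate 1 below the others. Syngr3 and Syngr1, synaptogyrins of the vesicle membrane, stood at 301 ± 69.0 and 290 ± 39.0 TPM, Synpr at 18.1 ± 2.48 TPM, and Syngr2, the form of non-neuronal cells, at 3.36 ± 2.59 TPM. The 4 members tested, Syngr3, Syngr1, Synpr and the widely expressed Sypl (14.4 ± 5.45 TPM), were all called lower than Syp (99% of all genes lower, 0.302% higher), and Syngr2 did not pass the filter on low counts. Syngr4 had no count. Snap91, whose symbol resembles the SNAREs but which encodes AP180, a clathrin adaptor that rebuilds vesicles, stood at 210, 245, 266 and 265 TPM.

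Each library was then set against the other 3 with edgeR's quasi-likelihood test over 11227 genes, 75 of them members. No condition differs between the libraries, so this describes the libraries only. In replicate 4, 43 of the 75 members (57.3%) had a log2 fold change above 0, beside 47.1% of all genes. The median log2 fold change of members in replicate 4 was 0.17, beside -0.05 over all genes. At an adjusted p under 0.05, 0 members were called higher or lower in it (0.0445 and 0.00891% of all genes). At an unadjusted p under 0.05, 16 members were higher (21.3%, beside 7.79% of all genes) and 1, Syt2, was lower (1.33%, beside 7.28%). Of the 75 members, 32 (42.7%) had their highest value in replicate 4, beside 31.5% of 11213 genes that reached 1 CPM in every library.

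Syn1 came nearest to a call, with a log2 fold change of 1.77 ± 0.28 (SE, adjusted p = 0.0502). Rph3a followed at 1.24 ± 0.25 (adjusted p = 0.120), Syn3 at 1.22 ± 0.31 (adjusted p = 0.170), Rab3b at 1.85 ± 0.47 (adjusted p = 0.178) and Doc2b at 1.77 ± 0.53 (adjusted p = 0.201). The SNARE genes Vamp2 and Snap25 stood at 0.86 ± 0.25 (adjusted p = 0.188) and 0.52 ± 0.21 (adjusted p = 0.286), and Syt2 at -1.54 ± 0.43 (adjusted p = 0.186). These calls turned on the tool. DESeq2 called 3 members higher in replicate 4 (Rab3b, Rph3a and Syn1) and 1 lower (Syt2), beside 0.998 and 2.2% of all genes. With no filter on low counts edgeR called 6 of 87 members higher and 1 lower, beside 1.29 and 0.936% of all genes. With any 1 of the other libraries left out, edgeR called 3 higher, beside 0.228 to 0.842% of all genes, and without replicate 1 it called Syt2 lower, beside 0.0964%. Syn1 was among the called genes each of these times. With no scaling beyond library totals, 0 members were called, beside 0% of all genes in either direction. Slc17a6 was also highest in replicate 4 (2215 TPM). The 6 other markers of glutamatergic nuclear neurons summed to 663, 413, 648 and 564 TPM in replicates 1 to 4, and they differed in order. Meis2, Tbr1 and Irx3 were highest in replicate 4 and Lhx9 and Lhx2 in replicate 1. Spp1, the most abundant of the 6, was highest in replicate 3 (375, 182, 468 and 245 TPM in replicates 1 to 4). The 4 microglia markers summed to 3.10 to 10.5 TPM, with C1qa at 0 in every library. The part of these in the levels above was not tested.

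**Figure D4:**
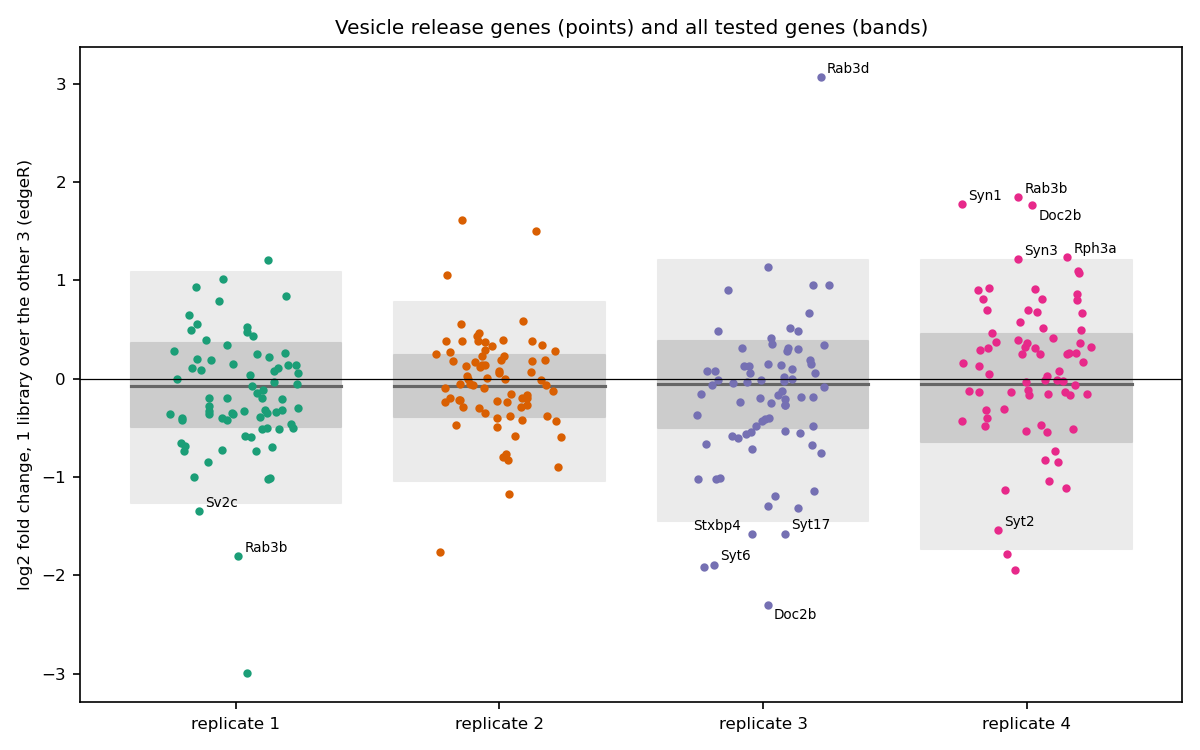
Log2 fold change of each library over the other 3 (edgeR) for the 75 members tested, as points. Light and dark bands hold the middle 90 and 50% of all 11227 genes, and the grey line is their median. Names mark members with an unadjusted p under 0.05 and a change over 1.2 in size. In replicate 4 more points lie above 0 than below.

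The other libraries held fewer members at low p. In replicate 3, 0 members were called (0% of all genes in either direction), and at an unadjusted p under 0.05, 2 were higher (2.67%, beside 3.66% of all genes) and 6 lower (8%, beside 3.28%). Rab3d was higher by 3.07 ± 0.82 and Doc2b lower by -2.30 ± 0.63, both with an adjusted p of 0.399. Doc2b alone was called lower with DESeq2, with no filter and without replicate 1, beside 0.436, 0.235 and 0.0526% of all genes. In replicate 1, 0 members were called (0.00891% of all genes higher, 0% lower), and at an unadjusted p under 0.05, 0 were higher (2.01% of all genes) and 4 were lower (5.33%, beside 1.76%), the vesicle membrane genes Syp at -1.01 ± 0.39, Sv2a at -1.02 ± 0.41 and Sv2c at -1.34 ± 0.50, and Rab3b at -1.81 ± 0.72 (adjusted p = 0.990 for each). Replicate 1 was also the library with Tcf7l2 at 1318 TPM, and what part that has in these values was not tested. In replicate 2, 0 members passed at either level (0% of all genes called in either direction, and 0.214% higher and 0.178% lower at an unadjusted p under 0.05).

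**Figure D5:**
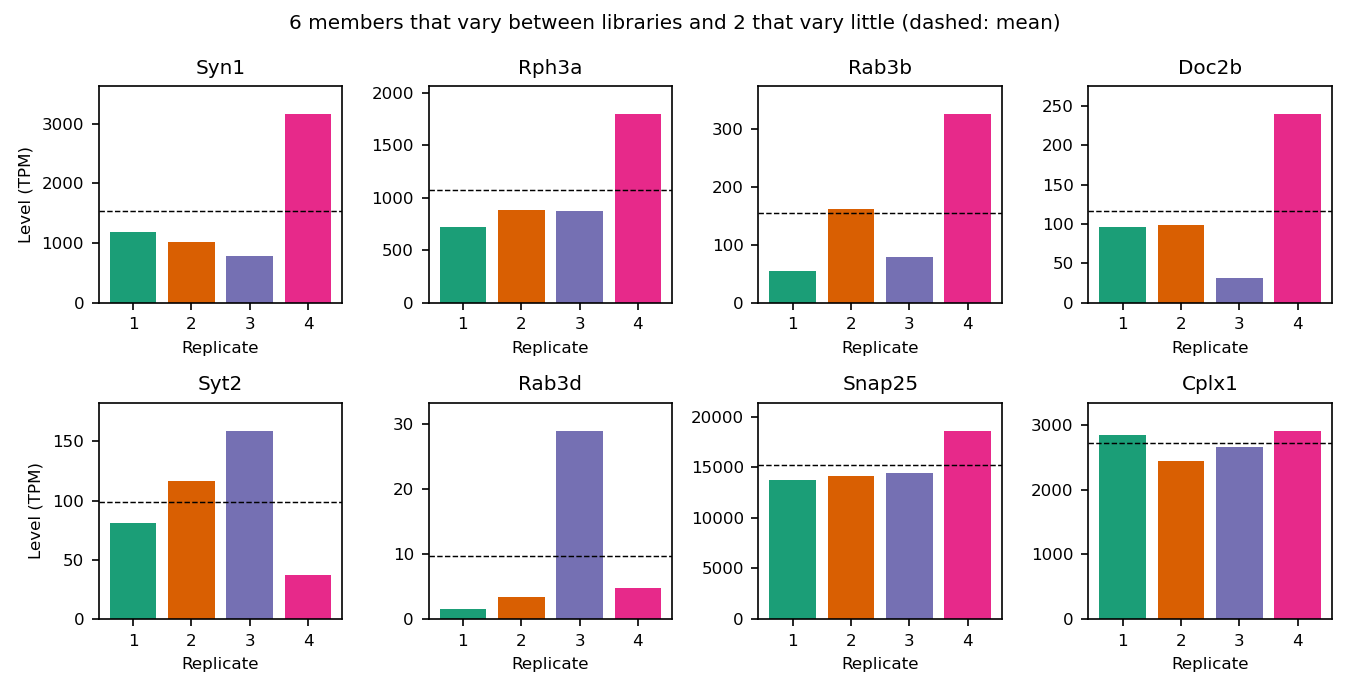
Level in TPM of 6 members that vary between libraries and of 2 that vary little, 1 bar per library, with the mean as a dashed line. Syn1, Rph3a, Rab3b and Doc2b are highest in replicate 4, Syt2 is lowest there, and Rab3d is highest in replicate 3. Snap25 and Cplx1 vary less (coefficients of variation of 14.9 and 7.66%), and both are highest in replicate 4.

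Beside the release genes, 37 partners of the vesicle cycle were listed, and all were measured. The chaperone Hspa8, which uncoats clathrin vesicles, stood at 1297 ± 141 TPM, and Dnm1, the neuronal dynamin that cuts vesicles from the membrane, at 793 ± 166 TPM. Synj1, encoding the lipid phosphatase synaptojanin 1, stood at 587 ± 178 TPM, Sh3gl2, encoding endophilin A1, at 562 ± 151 TPM and Prrt2, a presynaptic SNARE partner, at 562 ± 123 TPM. The widely expressed relatives Sh3gl1 and Dnm2 were lowest, at 13.1 ± 7.33 and 12.6 ± 5.29 TPM. No partner was called in any test of 1 library (0 of 37), beside 0 to 0.0445% of all genes higher and 0 to 0.00891% lower. With so few genes called, this is not a result about the partners. In replicate 4, 25 of 37 had a log2 fold change above 0, beside 47.1% of all genes, and the median of the 37 was 0.20. At an unadjusted p under 0.05 in replicate 4, 5 were higher and 2 lower, beside 7.79 and 7.28% of all genes.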

How the data were processed

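Ribosome-bound RNA was measured in 4 libraries of 1 group. The deposited files hold whole-number counts per gene name for each library, per the file contents, with 5 summary rows that were kept out of totals and tests. The submitters' processing notes name STAR 2.0.0e and HTSeq, with mm10 as the build. The sources used here give no annotation, strand setting or kit, so a gene and its antisense neighbour may share reads. Without molecular identifiers PCR copies count as reads, and floors cover counting error only.

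From the counts, CPM used all named genes and TPM used union exon lengths of GENCODE M21 (GRCm38, the same build), which covered 73.4% of names (23155 matched by symbol, 735 through an older one) and 93 of the 94 members. Levels are TPM, since over 80% of members had a length. Over the members, pairs of libraries differed with a chi-square per degree of freedom of 67.4 to 301, far over sampling noise. Family members were compared with limma 3.58.1 (trend, pseudocount 0.5) on differences from a reference gene within a library, two-sided. Single libraries were tested against the remaining 3 in edgeR 4.0.16 (TMM, filterByExpr, robust quasi-likelihood fit, 2 residual degrees of freedom) in R 4.3.3. Benjamini-Hochberg adjustment ran over all genes tested, with a threshold of 0.05. On simulated counts only the test of replicate 4 against the other libraries and the limma comparison with Syt1 were tried.

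Alternatives were DESeq2 1.42.0, no scaling beyond library totals, no filter, pseudocounts of 0.1 and 2, the longest transcript as length, CPM, a total without Lars2, and each replicate left out. Limma without moderation and with robust moderation were added once results had been seen. Named are the reference genes, the 3 highest and the lowest member of each family with a count in every library, members with no count, members called in a test of 1 library or with 1 library far from the others, and 7 partners. Other named genes were picked with their values in view. Results on 2 members are not reported here. The members, lists, references and motifs were chosen with earlier results of these data known. RefSeq promoters were matched by symbol.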

Additional observations from a re-analysis of the deposited data

Results flagged for a closer look

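In 5 members 1 library stood far from the other 3 by Dixon's ratio, the gap to the nearest library over the whole range, taken on log2(CPM + 0.5). Chance flags about 1 in 20 groups, and 80 members with a mean of at least 1 CPM were examined, so the number flagged is close to what chance gives. The ratio was not taken over all genes. Rph3a, the rabphilin gene, was high in replicate 4, at 1608 CPM against 721, 775 and 742 CPM in replicates 1 to 3 (ratio 0.910). Vamp3, an endosomal synaptobrevin, was low in replicate 4, at 10.3 CPM against 21.7, 23.8 and 23.9 CPM (ratio 0.887). Syt16, a synaptotagmin relative, was high in replicate 1, at 38.5 CPM against 20.6, 21.7 and 22.3 CPM in replicates 2 to 4 (ratio 0.872). Stx3, a syntaxin of ribbon synapses, was low in replicate 3, at 10.9 CPM against 27.7, 24.6 and 24.5 CPM in replicates 1, 2 and 4 (ratio 0.864). Unc13b, encoding Munc13-2, was high in replicate 1, at 25.8 CPM against 10.6, 9.10 and 9.74 CPM in replicates 2 to 4 (ratio 0.858).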

How the results depend on the processing

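No paired analysis was possible because the series has 1 group. Members called higher in replicate 4 rose from 0 with edgeR to 3 with DESeq2, 6 without the count filter and 3 to 3 when a library was left out, and those called lower from 0 to 1, 1 and at most 1. Members called lower in replicate 3 went from 0 to 1 with DESeq2 or no filter and 0 to 1 when a library was left out. With no filter on low values, family members called lower became 5 against Vamp2, 2 against Cplx1, 2 against Unc13a and 2 against Rims1, as more genes were tested. With the longest transcript as length or per count, 2 were lower than Nsf, 1 was higher than Syt1, 1 higher than Rims1 and 1 (Pclo) higher than Bsn, and with the longest transcript 1 was lower than Bsn. Without moderation 0 were higher than Unc13a. Without replicate 3, 2 were lower than Rims1 (range 1 to 2). The share of all genes called was not taken in these settings against a reference, so these counts are not results about the families. In the main fits 99.6, 99.7, 36.6 and 49.8% of all genes were called lower than Vamp2, Cplx1, Unc13a and Rims1. Differences that turned were Syt4 against Syt1 with the longest transcript (-0.33) and per count (-0.64), Rab3c against Rab3a per count (0.57), and Sv2b against Sv2a with the longest transcript (0.24), per count (0.59) and with a library left out (-0.48 to 0.032, above 0 without replicate 2). Apart from the changes named, the cause was not tested. Of 495 recomputed pair differences, 472 kept direction and side of the threshold. The other pairs kept their call at pseudocounts of 0.1 and 2. With the longest transcript 31 of 85 levels moved by more than 1 SD. With 4 libraries and 2 residual degrees of freedom, a member that is not called in 1 library is not shown to be equal.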
